A study of Mus musculus with 12 samples.

Results

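The Ets factors of blood and endothelium are 8 genes of a family of transcription factors that share one DNA-binding domain: Etv2, Fli1, Erg, Ets1, Ets2, Elk3, Etv6 and Spi1 (named Sfpi1 on the array). They were chosen by gene name, as every probe on the array that carries one of these names. This gave 15 probes of 41174, and 8 genes of the 27548 gene names on the array. All 8 genes passed the filter on dim probes and are among the 22724 genes tested. The RNA came from CD-1 mouse embryos at embryonic day 7.5, about 300 embryos of 25 litters in a single pool. Cells were stained for Endoglin and for Flk1 and sorted into 4 fractions, each with 3 samples of 3000 cells. These were the double-positive fraction Eng+Flk1+, then Eng-Flk1+ with Flk1 alone, Eng+Flk1- with Endoglin alone, and the double-negative Eng-Flk1-. The labels give no mutation and no treatment of the animals, whole embryos were used, and all 4 fractions share the same pool, so a p-value here speaks of the spread among samples sorted from one suspension, which may be technical. Messenger RNA of each sample was amplified by a global PCR method and hybridised to a 1-colour Agilent array.

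Flk1, the product of Kdr, binds vascular endothelial growth factor and marks the mesoderm that gives rise to blood and endothelium. Endoglin, the product of Eng, assists the receptors of TGF-beta and BMP ligands and is found on endothelium and on some early blood progenitors. Ets factors bind DNA at a GGAA core that occurs in the enhancers of most genes used by endothelium. Etv2 acts first and only for a short time, and embryos without it form neither blood nor vessels. Fli1 and Erg then take over and keep the endothelial and blood stem cell programmes running. Ets1 and Ets2 act in vessel growth, Elk3 and Etv6 are mainly repressors, and Spi1 (PU.1) drives the myeloid and B cell lineages.

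Ets factors share their DNA-binding domain, and 2 of the 8 genes, Etv2 and Ets1, are read by probes of related sequence. The Etv2 probe A_51_P137560 (build mm8, chr7:30342517-30342576, minus strand) starts at base 847 of its transcript. The probe that stands for Ets1, A_52_P232830 (mm8, chr9:32503806-32503865, plus strand), starts at base 1480 of its transcript, and a further Ets1 probe, A_51_P329043 (mm8, chr9:32503796-32503855, plus strand), overlaps it. The 3 probes are shown because a signal shared between them would touch the result on Etv2. In the first pair the capitals mark the bases that are identical between the Etv2 probe and A_52_P232830 in the best alignment without gaps, and in the last line those identical to the Etv2 probe.
Etv2 probe A_51_P137560: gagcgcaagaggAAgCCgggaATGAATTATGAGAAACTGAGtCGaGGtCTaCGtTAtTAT
Ets1 probe A_52_P232830: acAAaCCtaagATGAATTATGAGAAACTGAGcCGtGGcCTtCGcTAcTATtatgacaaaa
Ets1 probe A_51_P329043: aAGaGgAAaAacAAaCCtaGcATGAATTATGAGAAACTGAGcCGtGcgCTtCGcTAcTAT
The Etv2 probe matched A_52_P232830 at 37 of 50 aligned bases (74.0%) and A_51_P329043 at 43 of 60 (71.7%), and the longest run shared with either was 20 bases. Among 585 pairs formed by a probe of these 8 genes and any of the 47 probes of 26 Ets family genes, no other pair of different genes had 30 or more identical bases.

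The 250 bases before the start of Etv2 are printed because the Flk1 difference of Etv2 was called in every alternative setting run for it (24 of 24). They are from RefSeq (GRCm38.p6, chr7:30635853-30636102, minus strand, written 5′ to 3′ along the gene), and capitals mark every GGAA and its reverse complement TTCC.
Etv2 promoter: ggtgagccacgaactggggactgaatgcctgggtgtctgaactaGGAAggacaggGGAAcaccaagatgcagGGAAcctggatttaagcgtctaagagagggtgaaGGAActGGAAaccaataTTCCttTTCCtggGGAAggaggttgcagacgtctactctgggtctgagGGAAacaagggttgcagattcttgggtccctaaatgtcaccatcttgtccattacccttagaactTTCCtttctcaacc
This window held 10 such motifs. Of 32851 mouse promoters of the same length, 93.4% held at least 1, the median was 3, and 0.192% held as many as Etv2 or more. RefSeq promoters were matched for 5 of the 8 members: the Etv6 window held 3 motifs, that of Elk3 held 2, that of Ets2 held 1, and the 3 starts of Erg had 0, 2 and 4. A motif in these letters is not by itself a bound site.

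Kdr message differed between the sorted fractions, and Eng message was not called. Values below are levels on the log2 scale, scaled to the 75th percentile of all probes on that array, so 0 is the level of a fairly bright probe; levels of different probes cannot be set against each other. Kdr had levels of 1.53, 1.85 and 1.53 in Eng+Flk1+ and 0.90, 0.47 and 1.96 in Eng-Flk1+ cells, against -3.27, -6.80 and -6.07 in Eng+Flk1- and -4.41, -7.28 and -6.90 in Eng-Flk1- cells. Kdr was not well above background, a flag set by the scanner software, on 3 of these Flk1- arrays (Eng+Flk1- replicate 2 and Eng-Flk1- replicates 2 and 3), so those 3 values show only that the signal was low. Eng had levels of 2.76, 1.04 and 2.49 in Eng+Flk1+ and 0.75, 0.84 and -0.16 in Eng+Flk1- cells, against 0.20, -0.36 and 1.62 in Eng-Flk1+ and 0.13, -1.47 and -0.12 in Eng-Flk1- cells. The fractions with and without Endoglin protein overlapped in Eng message (log2 fold 1.29 ± 0.49 SE over both Flk1 states, adjusted p = 0.431). The Eng-Flk1- arrays stood apart: 66.5% to 76.3% of their spots were well above background, against 80.2% to 83.3% in the other fractions, and the correlation between 2 arrays was 0.675 to 0.720 there and at least 0.813 within each other fraction. Summed linear levels of 12 visceral endoderm markers were 101 to 325 in Eng-Flk1- and at most 13.9 in any other array. Trophoblast markers (9 genes) summed to 42.5 to 70.1 in Eng+Flk1- and to at most 25.9 elsewhere. Other marker lists moved with Flk1: primitive erythroid markers (9 genes) summed to 2.77 to 4.84 in Eng+Flk1+ and 2.50 to 3.02 in Eng-Flk1+, against 8.74 to 20.1 in Eng+Flk1- and 25.9 to 42.8 in Eng-Flk1-. Epiblast markers (6 genes) summed to 6.08 to 9.16 in Eng+Flk1+ and 6.31 to 11.9 in Eng-Flk1+, against 13.2 to 18.2 in Eng+Flk1- and 29.0 to 102 in Eng-Flk1-. The part of these cell types in the Flk1 differences below was not tested. Because each fraction is a mixture, fewer cells of a type and less RNA per cell cannot be told apart here.

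Across the fractions with Flk1, both with and without Endoglin, Etv2 and Fli1 were higher than across the fractions without it. This pooled comparison sets the mean of Eng+Flk1+ and Eng-Flk1+ against the mean of Eng+Flk1- and Eng-Flk1-. At an adjusted p under 0.05 (limma, Benjamini-Hochberg over all genes tested), 2 of 8 members were called, both higher, where 1.22% of all genes tested were called. The folds of 7 of 8 members were positive, with a median of 1.87 on the log2 scale, against a median of -0.09 over all genes tested.

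**Figure D1:**
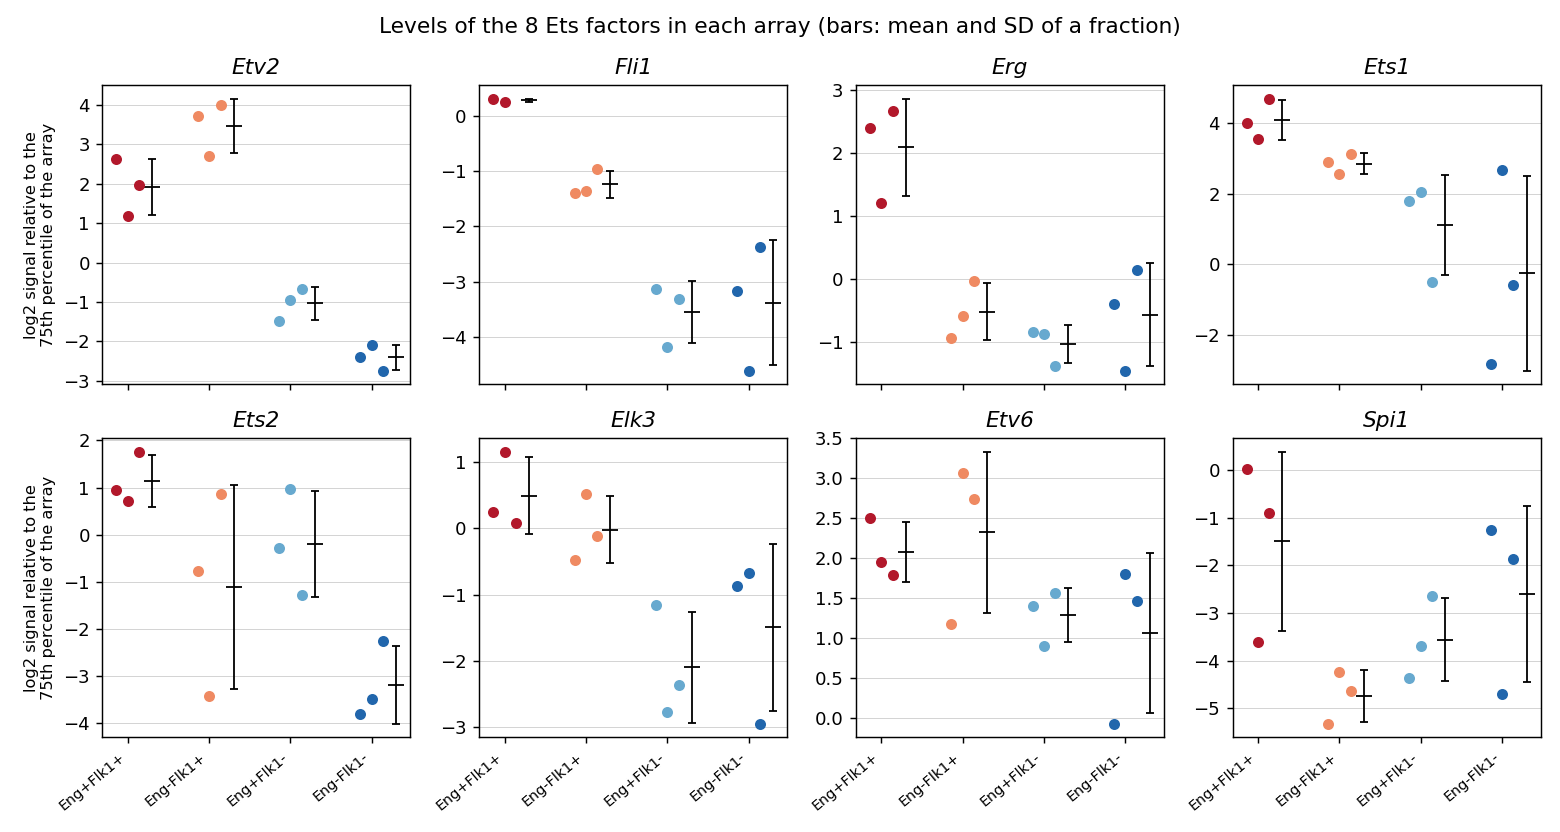
Level of each of the 8 genes on every array, in log2 units above or below the 75th percentile of that array, for the 4 fractions; dots are arrays and bars are the mean and SD of a fraction (3 arrays; 2 for Fli1 in Eng+Flk1+). All 6 Etv2 values of the Flk1+ fractions (1.20 to 4.01) lie above all 6 of the Flk1- fractions (-2.74 to -0.67), whereas the Spi1 values of the fractions mix.

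Etv2, which starts the blood and endothelial programme, had levels of 2.62, 1.20 and 1.96 in Eng+Flk1+ and 3.72, 2.69 and 4.01 in Eng-Flk1+ cells, against -1.49, -0.95 and -0.67 in Eng+Flk1- and -2.39, -2.09 and -2.74 in Eng-Flk1- cells. The 4 fractions were separate sets of values, in the order Eng-Flk1+, Eng+Flk1+, Eng+Flk1-, Eng-Flk1-, with no array of one reaching into the next. Over both Endoglin states Etv2 rose with Flk1 by 4.42 ± 0.36 on the log2 scale (SE, adjusted p = 0.000481). Without Endoglin the fold was 5.88 ± 0.51 (adjusted p = 0.000503). By the probes that stand for the genes, Etv2 was the 1 member called there, where 1.91% of all genes were called. With Endoglin the fold was 2.96 ± 0.51 (adjusted p = 0.0497), again the 1 member called by those probes, where 0.295% of all genes were called. In a fit of every probe on its own, Etv2 was not called with Endoglin (adjusted p = 0.0524). There a further probe of Erg (adjusted p = 0.0113), of Fli1 (adjusted p = 0.0140) and of Elk3 (adjusted p = 0.0377) was called higher. The Erg and Fli1 probes were mostly not well above background in Eng+Flk1-. The Etv2 call with Endoglin was kept in 9 of 26 alternative settings, with the fold between 2.61 and 3.33 in all of them. It was lost without any 1 of 10 arrays (adjusted p 0.0611 to 0.178), and held without Eng-Flk1- replicate 3 or Eng-Flk1+ replicate 2.

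The arrays lay on 3 slides, which do not hold the fractions evenly. Within the slide that holds both, Etv2 was 6.13 higher in the Eng-Flk1+ array than in the mean of 3 Eng-Flk1- arrays. On another slide it was 3.00 higher in the Eng+Flk1+ array than in the mean of 3 Eng+Flk1- arrays. With slide as a block the pooled Flk1 fold of Etv2 was 4.56 ± 0.57 (adjusted p = 0.0395), the 1 call of a member that held under that block. Ets1, whose probe is related in sequence, ran in a different order among Flk1+ cells. It was higher in each Eng+Flk1+ array (3.56 to 4.69) than in any Eng-Flk1+ array (2.55 to 3.12), the reverse of Etv2. Its pooled Flk1 fold was positive like that of Etv2, and Etv2 and Ets1 had a Pearson r of 0.689 over the 12 arrays. Whether their probes share signal was not tested.

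Fli1, which keeps up the endothelial and blood stem cell programme, had levels of 0.30 and 0.25 in Eng+Flk1+ and -1.39, -1.37 and -0.96 in Eng-Flk1+ cells, against -3.12, -4.17 and -3.32 in Eng+Flk1- and -3.16, -4.60 and -2.37 in Eng-Flk1- cells. The Eng+Flk1+ replicate 3 spot was marked as an outlier by the scanner software and set aside, so this fraction has 2 values; kept, its level would be -0.0018. Both Flk1+ fractions lay above both Flk1- fractions, and Eng+Flk1+ lay above Eng-Flk1+. Fli1 rose with Flk1 over both Endoglin states by 2.97 ± 0.44 (adjusted p = 0.0117). The call was lost without Eng+Flk1+ replicate 1 (2.96 ± 0.54, adjusted p = 0.0503) and with slide as a block (2.79 ± 0.74, adjusted p = 0.328). Within a slide, Fli1 was 1.99 higher in Eng-Flk1+ than in Eng-Flk1- and, with the outlier spot kept, 3.54 higher in Eng+Flk1+ than in Eng+Flk1-. With Endoglin its fold was 3.81 ± 0.65 (adjusted p = 0.0572), called without Eng-Flk1- replicate 2 (adjusted p = 0.0238) or 3 (adjusted p = 0.0294). Without Endoglin it was 2.14 ± 0.59 (adjusted p = 0.117), called without Eng-Flk1- replicate 3 (2.64 ± 0.54, adjusted p = 0.0474). A further Fli1 probe, A_52_P821, had levels of -4.32, -2.37 and -1.74 in Eng+Flk1+ and -4.93, -4.30 and -5.12 in Eng-Flk1+ cells, and was not well above background on any of the 6 Flk1- arrays. Its Eng+Flk1+ mean was at least 9.64-fold higher than in Eng+Flk1- and at least 6.76-fold higher than in Eng-Flk1-, where the dim side was set to the lowest signal among probes well above background on the same array or to the probe's own value if that was higher. In a fit of every probe on its own, this probe rose by 3.89 ± 0.48 over both Endoglin states (adjusted p = 0.00282).

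Erg, the close relative of Fli1, gave different answers from its 2 probes. A_52_P499821, designed on a cDNA clone and called the clone probe below, stands for the gene here. It was chosen by its higher mean over all 12 arrays, a mean set by the Flk1- arrays, where the other probe was mostly not well above background. It had levels of 2.40, 1.21 and 2.67 in Eng+Flk1+ and -0.93, -0.58 and -0.03 in Eng-Flk1+ cells, against -0.84, -0.87 and -1.38 in Eng+Flk1- and -0.39, -1.45 and 0.15 in Eng-Flk1- cells. By this probe Eng+Flk1+ stood above the other 3 fractions, which overlapped. The probe designed on the RefSeq mRNA, A_51_P418519, or RefSeq probe, lies on the same strand with 653 bases between them. It had levels of 2.36, 1.47 and 3.03 in Eng+Flk1+ and 0.87, 1.03 and 0.26 in Eng-Flk1+ cells, but was well above background on only 1 of 6 Flk1- arrays, Eng+Flk1- replicate 2, at -3.57. By this probe both Flk1+ fractions stood above both Flk1- fractions.

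The probe therefore decides the call on Erg. Over both Endoglin states the clone probe differed by 1.59 ± 0.39 (adjusted p = 0.0911), and the RefSeq probe rose by 8.32 ± 0.81 (adjusted p = 0.000931 in the fit of every probe). Without Endoglin the clone probe differed by 0.05 ± 0.55 (adjusted p = 0.972), and the RefSeq probe rose by 7.53 ± 1.14 (adjusted p = 0.00729). Since the dim arrays give only a bound, the RefSeq probe was at least 78.1-fold higher in Eng-Flk1+ than in Eng-Flk1-, and at least 231-fold higher in Eng+Flk1+ than in Eng-Flk1-. Within a slide the difference of Eng-Flk1+ minus Eng-Flk1- was -0.36 by the clone probe and 7.68 by the RefSeq probe. With Endoglin the clone probe differed by 3.12 ± 0.55 (adjusted p = 0.0517), which was called without Eng-Flk1- replicate 2 (adjusted p = 0.0381) or 3 (adjusted p = 0.0361). The 2 probes had a Pearson r of 0.697 over the 12 arrays, of which 7 had both well above background. Why they differ was not tested.

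**Figure D2:**
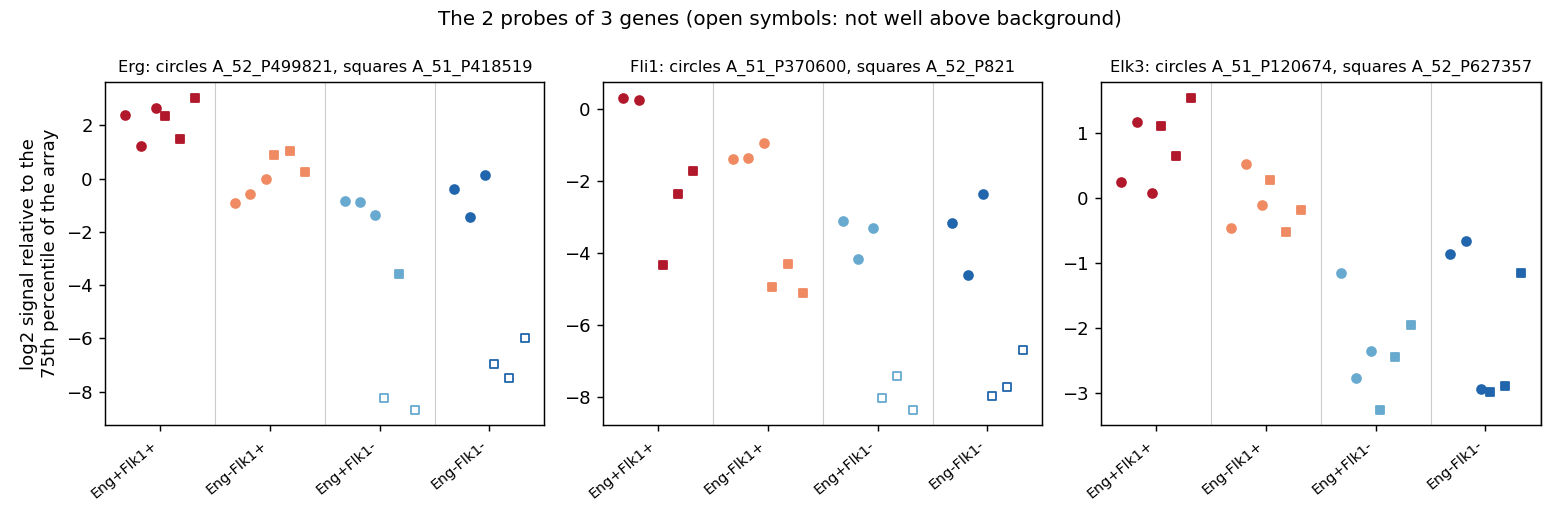
Levels (log2 units above or below the 75th percentile of that array) of the 2 probes of Erg, Fli1 and Elk3 on each array, by fraction; circles are the probe that stands for the gene, squares the other, and open symbols were not well above background. For Erg the squares lie between 0.26 and 3.03 in the Flk1+ fractions and between -8.68 and -3.57 in the Flk1- fractions, while the circles of Eng-Flk1+ overlap with those of both Flk1- fractions.

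Ets1, which acts in vessel growth and lymphocytes, had levels of 4.01, 3.56 and 4.69 in Eng+Flk1+ and 2.89, 2.55 and 3.12 in Eng-Flk1+ cells, against 1.79, 2.05 and -0.50 in Eng+Flk1- and -2.81, 2.67 and -0.59 in Eng-Flk1- cells. The 3 Eng+Flk1+ arrays were the highest, and Eng-Flk1- spread over more than the whole range of the other Flk1- fraction. The pooled Flk1 fold was 3.04 ± 0.83 and was not called (adjusted p = 0.139). Without Eng-Flk1- replicate 2 it was called, at 3.77 ± 0.58 (adjusted p = 0.0110), as was the fold without Endoglin, at 4.56 ± 0.87 (adjusted p = 0.0206). That fit also called more of all genes, 546 against 278 in the report for the pooled comparison. Without Endoglin it called 994 against 435. The order of the Eng-Flk1- arrays differed by probe: A_52_P194250 was at 1.95 in replicate 1 and not well above background in replicates 2 and 3. The overlapping probe A_51_P329043 followed the chosen one (r = 0.995), while A_52_P258291 and A_52_P194250, further along the transcript, did so less (r = 0.670 and 0.214). None of the 4 Ets1 probes was called for the pooled Flk1 comparison.

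Ets2, its closest relative, had levels of 0.95, 0.71 and 1.76 in Eng+Flk1+ and -0.77, -3.42 and 0.87 in Eng-Flk1+ cells, against -0.28, 0.96 and -1.27 in Eng+Flk1- and -3.81, -3.49 and -2.24 in Eng-Flk1- cells. Eng+Flk1+ was above Eng-Flk1- on every array. Eng-Flk1+ and Eng+Flk1- overlapped with each other and with Eng+Flk1+, and Eng-Flk1+ also overlapped with Eng-Flk1-. The pooled Flk1 fold was 1.71 ± 0.70 (adjusted p = 0.361) and that of Endoglin over both Flk1 states 2.62 ± 0.70 (adjusted p = 0.212).

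Of the repressors, Elk3 had levels of 0.24, 1.16 and 0.08 in Eng+Flk1+ and -0.47, 0.53 and -0.11 in Eng-Flk1+ cells, against -1.16, -2.76 and -2.36 in Eng+Flk1- and -0.86, -0.67 and -2.94 in Eng-Flk1- cells. The 6 Flk1+ arrays all lay above the 6 Flk1- arrays, but by a narrow gap, and the fold of 2.03 ± 0.48 was not called (adjusted p = 0.0831). A further Elk3 probe, A_52_P627357, rose with Flk1 by 2.92 ± 0.42 (adjusted p = 0.00686 in the fit of every probe). Etv6, which blood stem cells need in the bone marrow, had levels of 2.50, 1.94 and 1.78 in Eng+Flk1+ and 1.17, 3.06 and 2.73 in Eng-Flk1+ cells, against 1.40, 0.90 and 1.56 in Eng+Flk1- and -0.07, 1.80 and 1.46 in Eng-Flk1- cells. Its Flk1+ arrays overlapped with its Flk1- arrays, and the pooled fold was 1.02 ± 0.44 (adjusted p = 0.390). With Endoglin the Eng+Flk1+ arrays lay above the Eng+Flk1- arrays, but the fold of 0.79 ± 0.62 was not called (adjusted p = 0.999). A further Etv6 probe, A_52_P127358, gave a pooled fold of 3.77 ± 1.03 (adjusted p = 0.118).

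**Figure D3:**
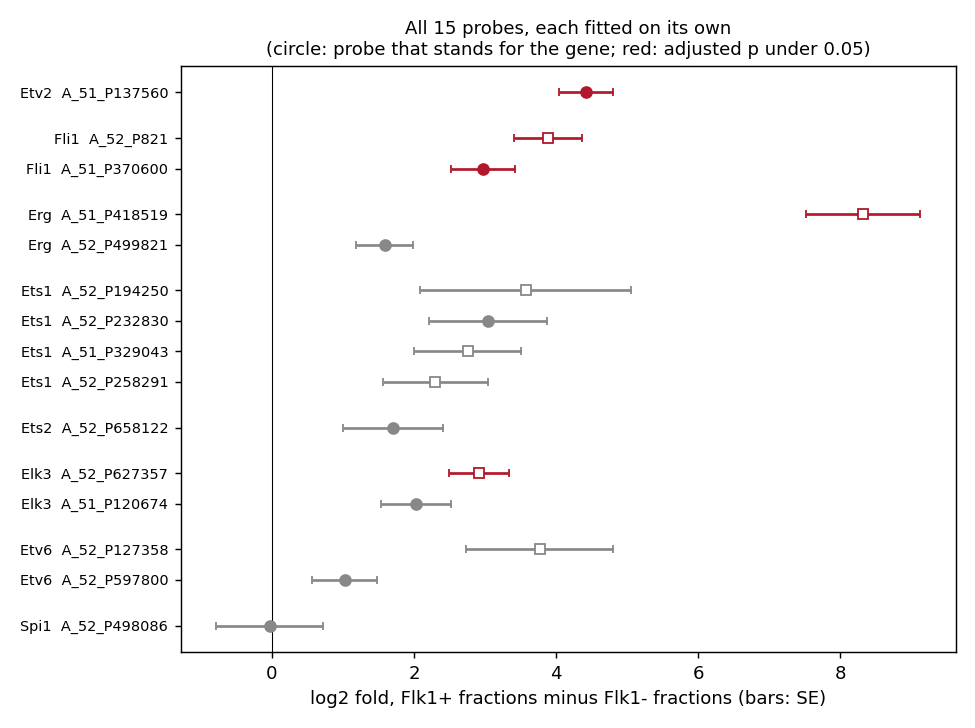
Log2 fold of the Flk1+ fractions minus the Flk1- fractions (x axis, bars are SE) for each of the 15 probes, fitted and adjusted as single probes; circles are the probe that stands for its gene, squares the others, and red marks an adjusted p under 0.05. The probes of Etv2 and Fli1 are called, as is the other probe of Erg and of Elk3, and the Spi1 probe sits at -0.03.

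Spi1, the driver of the myeloid lineage, showed no common order with Flk1. It had levels of 0.02, -3.60 and -0.91 in Eng+Flk1+ and -5.32, -4.24 and -4.64 in Eng-Flk1+ cells, against -4.36, -3.69 and -2.64 in Eng+Flk1- and -1.25, -4.70 and -1.87 in Eng-Flk1- cells. Its single probe spans 13788 bases of mm8, so it crosses an intron. Eng-Flk1+ was the lowest fraction and did not overlap with Eng+Flk1+, yet the difference of 3.24 ± 1.05 (Eng+Flk1+ minus Eng-Flk1+) was not called (adjusted p = 0.738). Pooled over both Endoglin states the Flk1 fold was -0.03 ± 0.75 (adjusted p = 0.992). Summed levels of 12 myeloid and leukocyte markers were 2.73 to 6.02 in Eng+Flk1+ and 3.31 to 5.66 in Eng-Flk1+ cells, against 3.68 to 6.54 in Eng+Flk1- and 3.85 to 9.66 in Eng-Flk1- cells, so these sums overlapped in all fractions.

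Eng+Flk1+ against Eng-Flk1- was the comparison with the most members called. By the probes that stand for the genes, Etv2, Fli1 and Erg were higher, 3 of 8 members, where 2.36% of all genes tested were called. In the fit of every probe the Ets2 probe (adjusted p = 0.0459) and a further Elk3 probe (adjusted p = 0.0126) were called too. So were the RefSeq probe of Erg (9.09 ± 1.14, adjusted p = 0.00234) and a further Fli1 probe (adjusted p = 0.00495). These Erg and Fli1 probes were not well above background on any Eng-Flk1- array, so their folds rest on values near background. All 8 folds by the probes that stand for the genes were positive, with a median of 3.15 against -0.06 over all genes. Etv2 rose by 4.33 ± 0.51 (adjusted p = 0.00213), Fli1 by 3.65 ± 0.65 (adjusted p = 0.0216) and Erg, by its clone probe, by 2.66 ± 0.55 (adjusted p = 0.0332). The Fli1 call was lost without Eng+Flk1+ replicate 1 (adjusted p = 0.113) or 2 (adjusted p = 0.0921), and with quantile normalization (adjusted p = 0.0535), the authors' table (adjusted p = 0.0790) or only these 2 fractions in the fit (adjusted p = 0.178); with normexp it held at a fold of 2.31 (adjusted p = 0.0215). The Erg call was lost without any 1 of 7 arrays (adjusted p 0.0501 to 0.121), and with the authors' table (adjusted p = 0.111), array quality weights (adjusted p = 0.0680) or only these 2 fractions (adjusted p = 0.199); the mean of its 2 probes gave 5.87 ± 0.73 (adjusted p = 0.00203). Ets2 differed by 4.32 ± 0.99 and was not called (adjusted p = 0.0518), but was without Eng-Flk1+ replicate 2 (adjusted p = 0.0160) or 3 (adjusted p = 0.0318). Ets1 differed by 4.33 ± 1.17 (adjusted p = 0.0977) and was called without Eng-Flk1- replicate 2 (adjusted p = 0.00651). Leaving out that array called 1021 of all genes, against 537 in the report. With slide as a block 0 of all 22724 genes were called here (limma; 1266 at an unadjusted p under 0.05), members included; these fractions share no slide. Between the single-positive fractions, Eng-Flk1+ against Eng+Flk1-, Etv2 was the 1 member called by those probes (4.51 ± 0.51, adjusted p = 0.0113), where 0.101% of all genes were called. Etv2 was not called without Eng-Flk1+ replicate 1 (adjusted p = 0.0767) or 3 (adjusted p = 0.0668). In the fit of every probe the RefSeq probe of Erg was called there too (adjusted p = 0.0447).

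No member was called for Endoglin. With Flk1 (Eng+Flk1+ minus Eng-Flk1+) 0 of 8 were called by limma, where 0.0264% of all genes were; 5 of 8 had an unadjusted p under 0.05, against 4.78% of all genes: Erg, Spi1, Etv2, Fli1 and Ets2. Erg is read by its clone probe in these Endoglin counts. By that probe it had the lowest p-value, at 2.61 ± 0.55 (adjusted p = 0.248), and passed with array quality weights (2.63 ± 0.42, adjusted p = 0.0445). Those weights also called more of all genes there, 52 against 6 in the report. The RefSeq probe of Erg gave 1.56 ± 1.14 (adjusted p = 0.999 in the fit of every probe). Without Flk1 (Eng+Flk1- minus Eng-Flk1-) 0 of 8 were called, where 1.46% of all genes were, and 2 of 8 had an unadjusted p under 0.05, against 14.4% of all genes, Ets2 (2.99 ± 0.99, adjusted p = 0.200) and Etv2 (1.37 ± 0.51, adjusted p = 0.255). Over both Flk1 states 0 of 8 were called (0.290% of all genes), with 2 at an unadjusted p under 0.05 (8.86% of all genes), Ets2 and Erg. For the interaction 0 of 8 were called (0.273% of all genes), with 3 at an unadjusted p under 0.05 (2394 of 22724 genes), Etv2, Erg and Spi1.

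**Figure D4:**
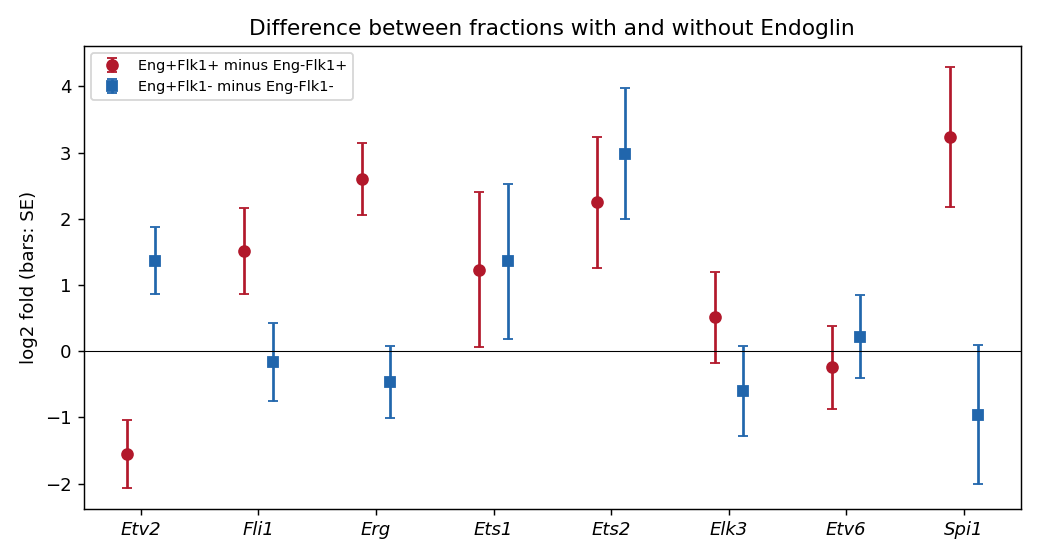
Log2 fold (y axis, bars are SE) between fractions with and without Endoglin for the 8 genes, among Flk1+ cells (circles) and among Flk1- cells (squares). The Etv2 fold is -1.55 among Flk1+ cells and 1.37 among Flk1- cells; none of the 16 folds was called.

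Genes that Ets factors bind or switch on were also higher in the Flk1+ fractions. The list holds 20 genes, Kdr and Eng among them, and was chosen with earlier results of these data known. Over both Endoglin states 11 of 20 rose with Flk1 and 0 fell, where 1.22% of all genes were called in either direction; the median log2 fold was 3.68, against -0.09 over all genes. Kdr encodes the protein the cells were sorted on; without Kdr and Eng, 10 of 18 rose and the median was the same. With slide as a block 1 of these 18 was called, Rhoj (6.08 ± 0.48, adjusted p = 0.0131), where 20 of all 22724 genes were called, and the median fold was 3.66. Rhoj, a small GTPase of endothelial cells, rose by 5.56 ± 0.34 (adjusted p = 9.74e-05), with mean levels of 2.44 ± 0.58 in Eng+Flk1+ and 1.27 ± 0.60 in Eng-Flk1+ cells, against -4.13 ± 0.57 in Eng+Flk1- cells and -3.27 ± 0.16 in Eng-Flk1- cells (SD, n = 3 each). Mef2c, a transcription factor of heart and vessels, rose by 5.19 ± 0.47 (adjusted p = 0.00071). The angiopoietin receptor Tek rose by 7.22 ± 0.92 and its relative Tie1 by 6.03 ± 0.76. VE-cadherin (Cdh5) rose by 5.65 ± 0.83 and Tal1, a master regulator of blood, by 3.72 ± 0.50. The others called were Kdr, Flt1 and Flt4 among the growth factor receptors, Egfl7, and Hhex. Of the 6 Flk1- arrays, Tek was well above background on 2, Cdh5, Flt4 and Kdr on 3, Tie1 and Flt1 on 4 and Mef2c on 5, so these folds rest in part on values near background. The Flt1 call (3.63 ± 0.75, adjusted p = 0.0463) was lost without any 1 of 11 arrays. For Endoglin with Flk1, 0 of 20 were called, with a median fold of 1.22; the lowest p-values were those of the adhesion molecule Pecam1 (3.48 ± 0.76, adjusted p = 0.275) and of Tie1 (4.74 ± 1.08, adjusted p = 0.314). Summed linear levels of the list were 89.3 to 113 in Eng+Flk1+ and 46.0 to 51.3 in Eng-Flk1+ cells, against 8.77 to 11.4 in Eng+Flk1- and 5.86, 7.15 and 40.5 in Eng-Flk1- cells, the last value in replicate 3.

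Of 18 other Ets family genes, 17 were tested, and their median Flk1 fold over both Endoglin states was -0.21, against -0.09 over all genes. Elf5, a factor of trophoblast stem cells, was the 1 of 17 called, where 1.22% of all genes were called, and it was lower. Its mean levels were -3.22 ± 0.50 in Eng+Flk1+ and -3.61 ± 0.30 in Eng-Flk1+ cells (SD, n = 3 in each fraction). In Eng+Flk1- cells they were 0.93 ± 0.65 and in Eng-Flk1- cells -2.44 ± 0.45. It fell with Flk1 by 2.66 ± 0.34 on the log2 scale (adjusted p = 0.00422), and among Flk1- cells it rose with Endoglin by 3.37 ± 0.47 (adjusted p = 0.00809). Elf3, an epithelial factor, also rose with Endoglin among Flk1- cells, by at least 14.9-fold (adjusted p = 0.0473). These were the 2 of 17 called in that comparison, where 1.46% of all genes were called. The Elf3 call was lost in 16 of 24 alternatives, among them without any 1 of 9 arrays. Eng+Flk1- and Eng-Flk1- lay on different slides, and with slide as a block 0 of 22724 genes were called between them (limma; 1008 at an unadjusted p under 0.05), so the calls of both genes were lost (Elf5 4.09 ± 1.21, adjusted p = 0.817; Elf3 adjusted p = 1.00). The Flk1 call of Elf5 was lost with that block too (-2.80 ± 0.52, adjusted p = 0.117). Both were highest in Eng+Flk1-, the fraction with the high trophoblast sums; the part of trophoblast cells in this was not tested.

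**Figure D5:**
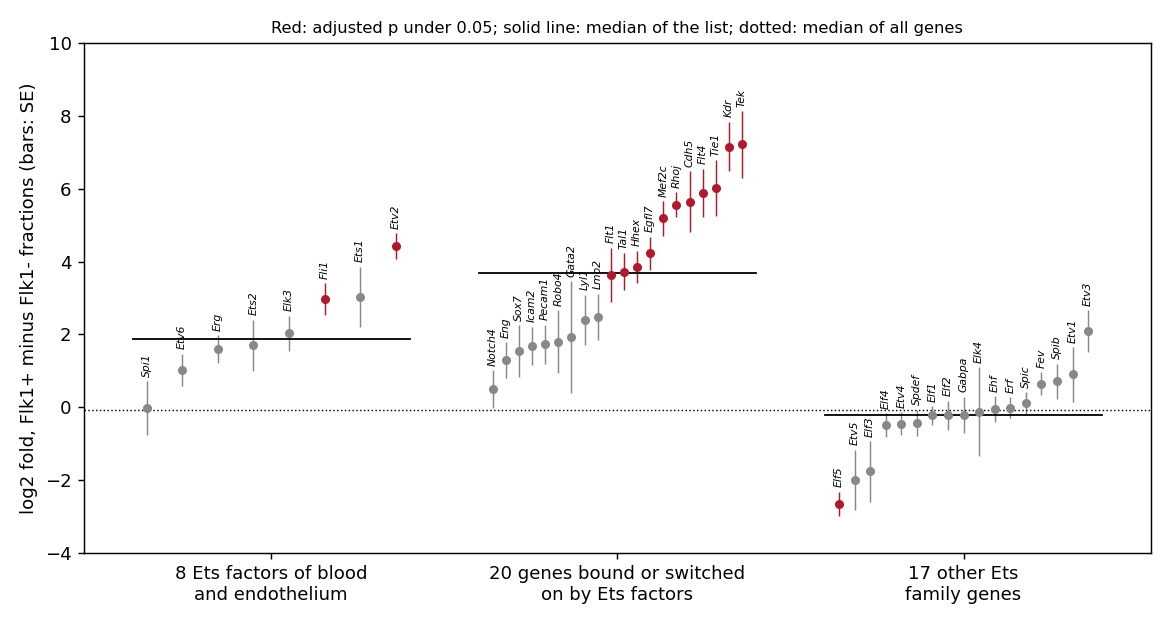
Log2 fold of the Flk1+ minus the Flk1- fractions (y axis, bars are SE) for the 8 Ets factors, the 20 genes that Ets factors bind or switch on, and 17 other Ets family genes; red marks an adjusted p under 0.05, solid lines the median of a list and the dotted line the median of all genes (-0.09). The medians are 1.87, 3.68 and -0.21.

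The genes whose levels followed each member most closely over the arrays are given as a description, since all share the same 12 arrays and 4 fractions (11 arrays for Fli1). Nearest to Etv2 were Col13a1 (Pearson r = 0.933), Mrps36, Mef2c and Twist1. Nearest to Fli1 were Arap3 (r = 0.937), Aplnr, Col4a1 and Colec12. Erg, by its clone probe, ran with Icam2 (r = 0.944), an adhesion molecule of endothelium, then with Tmem204, Best2 and Brsk2. Ets1 ran with Msn (r = 0.964), Plxnd1, Pik3r1 and Med13l. Ets2 ran with Wdr70 (r = 0.926), Nid1, Ap3s2 and Sptlc1, and Elk3 with Arhgap31 (r = 0.924), Ppp1r16b, Eml3 and Cd59a. Etv6 ran with Mill2 (r = 0.824), Gsk3b, Hnrnpul2 and Sort1, and Spi1 with Mos (r = 0.866), Adcy9, Fpr1 and Hs3st2. Among the members themselves the highest value was that of Fli1 and Erg (r = 0.809 over 11 arrays).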

How the data were processed

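Per the file headers, the scanned 1-colour arrays were read with Agilent Feature Extraction 10.5.1.1, and the deposited processed signal is an intensity per spot, background-subtracted by the authors' scanner software and not scaled between arrays; probe positions refer to mm8. Flags deposited beside each spot (well above background, outlier) were read as 0 or 1. The authors' table of all samples, also deposited, holds intensity divided by the array's median; it was an alternative.

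Control spots (1639) were left out, which left 43379 spots. Spots with an outlier flag were set aside, log2 was taken, the array's 75th percentile was subtracted, and spots of a probe were averaged. The brightest probe on average stood for a gene. A gene was tested if all 3 arrays of some fraction had it well above background, in one linear model of the 4 fractions (limma 3.58.1 in R 4.3.3), with moderated tests and p-values adjusted by Benjamini-Hochberg over 22724 genes, for 9 comparisons; the fit was tested on simulated data. Sequences were read with pandas 2.3.3 and figures drawn with matplotlib 3.10.9 (Python 3.11.15). The number of arrays limits the precision.

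The members and lists were chosen with earlier results of these data known. Named genes are the members with every probe, the sort markers, the list genes called in the comparison described (where none is called, the 2 with the lowest p), and the 4 genes most correlated with each member. Alternatives changed the background correction, scaling, filter, probe choice, variance model, weights, slide and replicate blocks, and arrays included.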

Additional observations from a re-analysis of the deposited data

Results flagged for a closer look

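The folds between fractions with and without Endoglin had opposite signs in Flk1+ and Flk1- cells in 6 of 8 members. Etv2 is given here because it was the 1 member whose fractions did not overlap in either. The shares of all genes with opposite signs or with no overlap are not given, so neither count can be read as particular to the members. The lack of overlap described next is the reason for the choice and adds no support. Among Flk1+ cells (Eng+Flk1+ minus Eng-Flk1+) its log2 fold was -1.55 ± 0.51 (SE, adjusted p = 0.756), and all 3 Eng+Flk1+ arrays lay below all 3 Eng-Flk1+ arrays. Among Flk1- cells (Eng+Flk1- minus Eng-Flk1-) its log2 fold was 1.37 ± 0.51 (adjusted p = 0.255), and all 3 Eng+Flk1- arrays lay above all 3 Eng-Flk1- arrays. The test of the difference between these effects, the interaction in limma, gave -2.92 ± 0.72 (unadjusted p = 0.00216, adjusted p = 0.161), so it did not pass. The interactions of Spi1 (4.20 ± 1.49, adjusted p = 0.357) and of Erg by its clone probe (3.07 ± 0.77, adjusted p = 0.164) were larger in size and did not pass either. The RefSeq probe of Erg gave 1.59 ± 1.61 (adjusted p = 0.732 in the fit of every probe). On the slide that holds 2 arrays each of Eng+Flk1+ and Eng-Flk1+, Etv2 differed by -1.44. No slide holds both Eng+Flk1- and Eng-Flk1- arrays, so the difference among Flk1- cells, and with it the interaction, has no within-slide value.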

How the results depend on the processing

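Each count of members called was recomputed under 24 to 26 alternatives, and no fold of a call changed its sign. Slide as a block lowered the counts: 0 members for Flk1 without Endoglin (1 in the report), with Endoglin (1), for Eng+Flk1+ against Eng-Flk1- (3) and for Eng-Flk1+ against Eng+Flk1- (1), and 1 for Flk1 over both Endoglin states (2). In the same order it called 16, 12, 0, 0 and 20 of all 22724 genes, so a count of 0 members there says nothing particular to them. The mean of all probes of a gene, chosen after seeing the data, raised them to 4, 4, 6, 2 and 5 in the same order. It also called more of all genes: 599, 127, 689, 36 and 437 of 22743, against 435, 67, 537, 23 and 278 of 22724 in the report. The count for Flk1 with Endoglin was 0 with the authors' table (52 genes called), without a filter on dim probes (42 of 27548), with every probe fitted on its own (65) and with only the 2 fractions compared (75). With every probe fitted on its own, only the probe that stands for each gene was counted. In that fit a further probe was called for Erg (adjusted p = 0.0113), Fli1 (adjusted p = 0.0140) and Elk3 (adjusted p = 0.0377). The count for Flk1 with Endoglin was 2 with quantile normalization (94 genes called) and with an intensity trend (71). It was also 2 without the 3 Eng-Flk1- arrays (129) and when the filter asked for all 12 arrays (37 of 17588). It was 3 with normexp (94) and, chosen after seeing the data, with outlier-flagged spots kept (73). With array quality weights it was 4 (214 genes called, against 67 in the report). Weights also gave 1 member for Endoglin with Flk1 (52 genes called, against 6 in the report). They gave 2 for Eng-Flk1+ against Eng+Flk1- (256 genes, against 23). The authors' table gave 1 for Eng+Flk1+ against Eng-Flk1- (379 genes, against 537). The replicate block gave 0 for Flk1 with Endoglin (23 genes called). Whether the replicate numbers pair the samples cannot be told from these values. Of the same-numbered pairs, 1 of 18 correlated over 0.1 (range -0.09 to 0.13), and of the other pairs 0 of 36 did. Of 12 arrays, 7 correlated best with an array of their own number (3 of the 9 arrays of other fractions carry it). Leaving out single arrays gave 1 to 2 members for Flk1 without Endoglin (166 to 994 of all genes called), 0 to 3 with Endoglin (26 to 107) and 1 to 4 for Eng+Flk1+ against Eng-Flk1- (258 to 1021). It gave 0 to 1 for Eng-Flk1+ against Eng+Flk1- (7 to 53) and 1 to 3 for Flk1 over both Endoglin states (172 to 546). For all Endoglin comparisons and the interaction it gave 0 members. Etv2 over both Endoglin states kept its call in 24 of 24 alternatives (adjusted p 0.000221 to 0.0395), and Fli1 in 22 of 24. Erg in Eng+Flk1+ against Eng-Flk1- kept it in 14 of 25. The causes were not tested. Values near background, as in the dimmer Erg and Fli1 probes, give bounds only.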

Other observations

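Of 10 genes known to work with Etv2 or to regulate it, Tal1 was the 1 called for Flk1 over both Endoglin states, where 1.22% of all genes were called. It was higher. Tal1 is also on the list of genes that Ets factors bind or switch on, so this is the same call as given there. Foxc1, a forkhead factor of mesoderm that acts on Etv2 target enhancers, differed by -3.64 ± 1.06 between Eng+Flk1+ and Eng-Flk1+ cells (log2 scale, adjusted p = 0.586); in Eng+Flk1+ only 1 of 3 arrays measured it above background. Nkx2-5, a cardiac factor, was measured above background by no Eng+Flk1+ array and was at least 2.01-fold lower there than in Eng-Flk1+ cells (adjusted p = 0.901); neither was called. The median fold of the 10 genes for Flk1 over both Endoglin states was 0.23, against -0.09 over all genes tested.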
